A study of Homo sapiens with 12 samples.

Results

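Promoters that lie far from CpG islands were examined in HL-60 cells with and without differentiation. A region belonged to this class when its deposited promoter distance was at most 1000 bases and its distance to the nearest CpG island was over 2000 bases. By this rule 3721 of 327931 regions enriched for 5-hydroxymethylcytosine (5hmC) and 767 of 65535 listed regions enriched for 5-methylcytosine (5mC) were members, near the starts of 3284 and 810 genes. Of these, 2288 regions of 5hmC and 501 of 5mC had a promoter distance of 0, and the others lay 1 to 1000 bases upstream of a start. The files do not define this distance, so gene starts were inferred from the distances above 0, which placed 1453 of the 2288 regions and 303 of the 501. Of those placed, 521 and 141 overlapped the inferred start, and 932 (64.1%) and 162 (53.5%) lay wholly downstream with their first base within 1000 bases of it. A further 103 and 26 lay upstream of the inferred start or over 1000 bases downstream of it, and were set aside as near another start. For 732 and 172 no start could be inferred. Only regions that fit were counted as placed, so the placed ones do not test the reading used here. A distance of 0 is read as a region that touches the start or the 1000 bases downstream of it. For the regions set aside or without an inferred start this reading is unsure. All members entered the test. Their median width was 800 bases for 5hmC and 1000 for 5mC, and their median distance to an island was 23991 and 26060 bases.

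HL-60, a human line from a promyelocytic leukemia, takes on features of neutrophils when grown in dimethyl sulfoxide (DMSO). Differentiated cells had received 1.5% DMSO (211 mM) for 7 days and were sorted as viable and positive for CD11b, whereas undifferentiated cells were sorted as viable and negative for CD11b. Each state had 3 biological replicates, and the DNA of each was divided between an antibody to 5mC (MeDIP) and one to 5hmC (hMeDIP). The comparison is therefore one of sorted fractions of 1 cell line, and a change within all cells cannot be told apart from a change in which cells were sorted. Counts in all regions ranged over 13010267 to 32495733 in differentiated and 15688562 to 33693880 in undifferentiated 5hmC libraries, and members held 1.38% to 1.47% and 1.46% to 1.5% of them. The listed 5mC regions held 7940755 to 9670011 counts in differentiated and 6076100 to 6851769 in undifferentiated libraries, which is not the depth of those libraries because the list holds only the regions with the smallest p-values.

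Methyl groups on the cytosine of CG dinucleotides are laid down by DNA methyltransferases, and TET enzymes oxidise 5mC to 5hmC. Most housekeeping genes start within CpG islands, which are dense in CG and usually free of methylation. Promoters without an island hold few CG sites, are often methylated where the gene is silent, and are frequent among genes restricted to 1 tissue, such as olfactory receptors, keratins, globins and receptors of white blood cells.

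The promoters of 5 genes whose regions are described below serve as examples of low CG content. They were chosen because each passed the test, has a single start in the table used and holds at most 5 CG. Their low CG count was therefore fixed by the choice and says nothing about the other members. They are shown from 250 bases before to 50 bases after the start with CG in capitals (RefSeq, GRCh38.p14). FPR1 lies on the minus strand at chr19:51751829-51752128 and holds 0 CG. DMBT1 lies on the plus strand at chr10:122560504-122560803 and holds 3. BCAR4 (minus strand, chr16:11828783-11829082) and SPRR2F (minus strand, chr1:153113467-153113766) hold 2 each, and GBP1 (minus strand, chr1:89065159-89065458) holds 3. The median over all 35116 promoters of the table was 14 CG, and 33.7% of them held at most 5.
FPR1 promoter: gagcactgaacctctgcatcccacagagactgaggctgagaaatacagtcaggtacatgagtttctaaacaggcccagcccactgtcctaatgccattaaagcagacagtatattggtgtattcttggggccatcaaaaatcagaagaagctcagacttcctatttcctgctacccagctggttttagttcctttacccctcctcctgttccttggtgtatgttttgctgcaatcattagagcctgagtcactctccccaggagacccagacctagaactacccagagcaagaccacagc
DMBT1 promoter: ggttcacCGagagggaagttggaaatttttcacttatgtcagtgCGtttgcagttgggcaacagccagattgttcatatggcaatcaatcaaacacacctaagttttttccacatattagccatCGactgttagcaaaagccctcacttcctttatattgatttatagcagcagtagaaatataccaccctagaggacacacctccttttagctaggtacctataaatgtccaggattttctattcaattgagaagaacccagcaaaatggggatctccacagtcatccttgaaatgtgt
BCAR4 promoter: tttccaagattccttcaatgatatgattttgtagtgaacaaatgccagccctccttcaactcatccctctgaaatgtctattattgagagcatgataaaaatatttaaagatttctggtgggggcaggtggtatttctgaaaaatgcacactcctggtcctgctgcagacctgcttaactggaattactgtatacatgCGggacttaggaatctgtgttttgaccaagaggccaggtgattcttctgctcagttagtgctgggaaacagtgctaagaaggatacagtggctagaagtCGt
SPRR2F promoter: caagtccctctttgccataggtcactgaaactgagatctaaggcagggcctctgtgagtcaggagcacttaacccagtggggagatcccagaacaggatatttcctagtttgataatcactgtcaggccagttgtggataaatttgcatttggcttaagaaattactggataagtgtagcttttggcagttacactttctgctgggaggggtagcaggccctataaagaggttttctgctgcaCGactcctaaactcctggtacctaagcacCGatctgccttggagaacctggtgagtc
GBP1 promoter: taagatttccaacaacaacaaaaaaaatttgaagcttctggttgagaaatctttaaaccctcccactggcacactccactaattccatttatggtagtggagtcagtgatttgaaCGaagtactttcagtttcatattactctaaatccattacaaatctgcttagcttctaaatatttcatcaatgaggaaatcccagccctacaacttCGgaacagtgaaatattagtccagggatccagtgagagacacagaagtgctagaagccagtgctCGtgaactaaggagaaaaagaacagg
The sequences were matched to the regions by gene symbol, because the regions are on GRCh37 (hg19), so a start shown here need not be the start nearest to the region. A TATA box (TATAAA, either strand) was found in DMBT1 and SPRR2F and in 11.5% of all promoters. The pattern TTNNGNAA of C/EBP factors was found in all 5 and in 36.8% of all promoters. TGTGGT of RUNX factors was found in FPR1 and in 13.1%, and GAGGAAGT of PU.1 in none of the 5 and in 2.59%. The 5 were chosen for few CG, and the rate among promoters with at most 5 CG was not computed. No enrichment of a pattern can therefore be read from these rates. Only 56.9% of the 3287 gene names in the 5hmC members (the 3284 genes and 3 entries that read as dates) and 54.9% of the 810 in the 5mC members had a promoter in the table, so a comparison of CG content between members and other genes was void.

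Of the 3721 members, 5hmC was higher in 1155 and lower in 632 in differentiated against undifferentiated cells, and 1934 did not pass (threshold 0.05 on p-values from edgeR's quasi-likelihood test, adjusted by Benjamini-Hochberg across all tested regions of the mark, n = 3 per state). The share called, 48.0%, was close to the 50.3% of all 327901 tested regions, of which 27.0% were higher and 23.3% lower. The members' direction differed from that of the table, with 64.6% of their calls higher against 53.7% of all calls. Their median log2 fold change was 0.22, against -0.04 over all tested regions. All 3 libraries of 1 state lay above all 3 of the other in 51.7% of members and in 52.2% of all regions.

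The balance of higher and lower calls depended on how libraries were scaled. With library totals in place of TMM factors, 510 members were higher and 979 lower with a median of 0.00, and with TMM on the strongest regions 328 were higher and 1145 lower with a median of -0.07. The median of all regions moved with them, to -0.25 and -0.33, so that members stood 0.26 above all regions as scaled here and 0.25 above them under both others. Calls in the whole table turned as well, to 46023 higher and 118331 lower by library totals. Of these calls 28.0% were higher, against 34.3% of the members' calls. Directions of groups below are to be read against this shift, and their counts by library totals against these shares. Without differentiated replicate 3 the calls in members dropped to 1191, and without undifferentiated replicate 1 to 1093. These were the most deeply sequenced library of each state.

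In 5mC, 350 members were higher, 224 lower and 193 did not pass, a share called of 74.8%, where 72.7% of all 65534 tested regions were called (35.7% higher, 37.0% lower). Because the deposited 5mC list was already selected on this contrast, these counts are a description, and few listed regions have a fold change near 0. The states were fully separate in 86.4% of members and 86.1% of the list. The median log2 fold change was 0.38 in members and 0.22 in the list. Scaled by library totals, 34 members were higher and 304 lower (medians 0.12 and -0.03), and with TMM on strong regions 27 and 304 (0.10 and -0.06). In the whole list 2494 regions were higher and 32689 lower by library totals. Of these calls 7.09% were higher, against 10.1% of the members' calls. Leaving out 1 library at a time gave 339 to 370 calls in members, so every library moved this count by over 1.5 times.

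**Figure D1:**
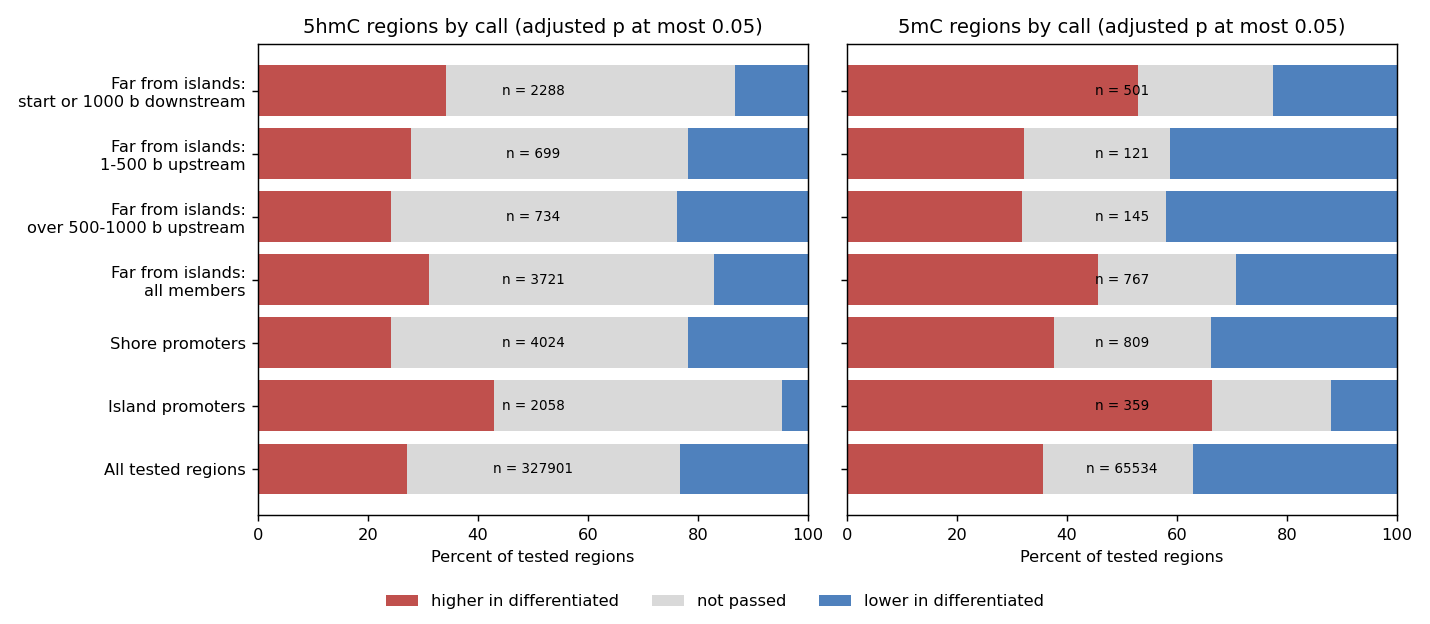
Stacked bars give the percent of tested regions that were higher (red), not passed (grey) or lower (blue) in differentiated cells, for members by distance from a start, all members, other promoter classes and all tested regions, with 5hmC on the left and 5mC on the right. Red shrinks and blue grows from regions at the start or up to 1000 bases downstream to those upstream of it in both marks.

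Promoter classes were compared with TMM scaling only. Of 2058 island promoters (distance 0 to an island), 882 were higher in 5hmC, 97 lower and 1079 did not pass, with a median of 0.39. Shore promoters (island within 2000 bases) had 969 higher and 874 lower of 4024 and a median of 0.05, and the members lay between these classes. The same order held in 5mC, with 238 higher and 43 lower of 359 island promoters and 304 higher and 274 lower of 809 shore promoters. Regions far from islands and over 1000 bases from an upstream start had 80860 higher and 71206 lower 5hmC calls and a median of -0.07.

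Position relative to the start separated the members. At distance 0, 783 regions of 5hmC were higher and 305 lower of 2288, with a median log2 fold change of 0.28. At 1 to 500 bases upstream 194 were higher and 152 lower of 699 (median 0.09), and at over 500 to 1000 bases upstream 178 were higher and 175 lower of 734 (median -0.01). In 5mC the classes had 265 higher and 113 lower of 501 (median 0.42), 39 and 50 of 121 (-0.37), and 46 and 61 of 145 (-0.44). Few listed 5mC regions have a fold change near 0, so 5mC medians here and below can jump across 0. They do not measure the size of a shift. By library totals the 5hmC medians were 0.07, -0.13 and -0.22, and the calls at distance 0 became 329 higher and 489 lower, so that the order of the classes remained while the balance of calls at distance 0 turned. The 5mC classes became 27 higher and 148 lower (median 0.16), 4 and 67 (-0.62), and 3 and 89 (-0.70) by library totals. Of the placed 5hmC members, those that overlapped the inferred start had 215 higher and 38 lower of 521 (median 0.35), and those wholly downstream 284 and 148 of 932 (median 0.26); by library totals these were 87 and 79 (0.13) and 116 and 223 (0.05). In 5mC the overlapping ones had 81 higher and 19 lower of 141 (median 0.42; 10 and 25 by library totals) and those downstream 70 and 48 of 162 (median 0.41; 8 and 64). Shore promoters showed the same order in 5hmC, with medians of 0.22, -0.03 and -0.14, so the order was not seen in members only.

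A ratio within each library does not depend on scaling between libraries. In members up to 10 kb wide, counts in regions at distance 0 divided by counts in upstream regions were 1.91, 1.85 and 1.92 in differentiated and 1.75, 1.78 and 1.74 in undifferentiated 5hmC libraries. In 5mC the ratios were 2.46, 2.47 and 2.42 in differentiated and 2.06, 2.05 and 2.01 in undifferentiated libraries. The states did not overlap in either mark. The difference of means was 0.139 for 5hmC (1.89 ± 0.0427 against 1.76 ± 0.0211, SD, n = 3 per state) and 0.412 for 5mC (2.45 ± 0.0247 against 2.04 ± 0.0259). A two-sided exact permutation test over libraries gave p = 0.10 for both, the smallest that 3 against 3 libraries allow. The 5mC regions come from a list selected on this same contrast, so the separation of the states in 5mC is a description only. The comparison by position was added after the data were seen.

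**Figure D2:**
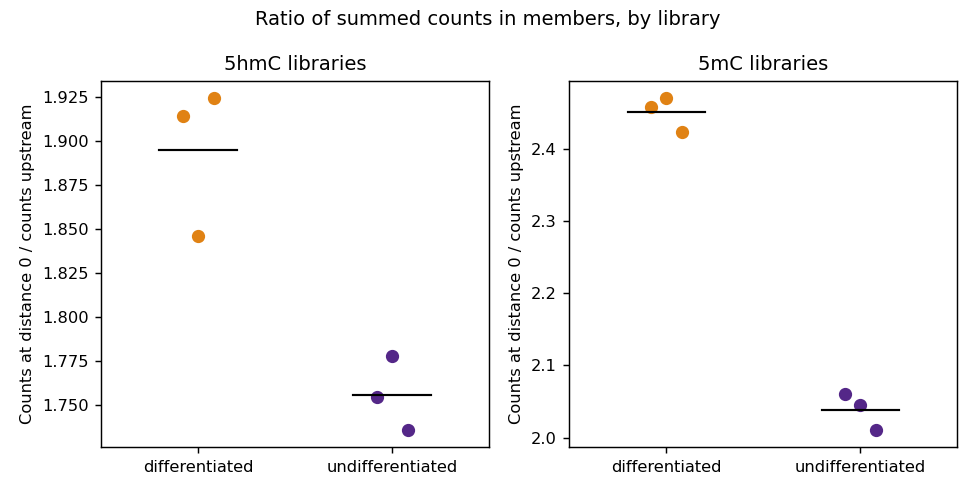
Points give, for each library, the summed counts of members at distance 0 (the start or up to 1000 bases downstream) divided by those of members 1 to 1000 bases upstream, with the mean as a line, for differentiated (left) and undifferentiated (right) libraries; the axes do not start at 0. All differentiated points lie above all undifferentiated ones in both marks, 1.85 against 1.78 at the closest in 5hmC and 2.42 against 2.06 in 5mC. The 5mC regions come from a list already selected on this contrast.

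Width moved with position and with direction. Among 5hmC members up to 400 bases wide 212 were higher and 244 lower of 790 (113 and 323 by library totals), whereas 88 were higher and 16 lower of 256 over 2000 bases wide (36 and 54). At widths of 600 to 1000 bases, regions at distance 0 had 396 higher and 131 lower of 1137 (median 0.32), and those over 500 to 1000 bases upstream 94 higher and 75 lower of 364 (median -0.04). Within a gene the order was less regular. Of 373 genes with 5hmC members both at distance 0 and upstream, 203 had the larger log2 fold change at distance 0. Higher 5hmC at distance 0 with lower 5hmC upstream was called in 23 genes, and the reverse in 16. In 5mC 8 of 17 such genes had the larger value at distance 0, with 1 gene of each opposite pattern.

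Genes of white blood cells were among those 23. GBP1 encodes an interferon-induced GTPase. Its region 843 bases downstream of the inferred start (chromosome 1, 89529601 to 89530200, hg19) had 4.4, 5.64 and 4.6 CPM (counts scaled to a common library size) in differentiated and 2.55, 3.62 and 2.78 CPM in undifferentiated libraries, a log2 fold change of 0.70 (standard error 0.162, adjusted p = 0.00056, edgeR). The region 758 bases upstream had 1.52, 1.7 and 1.63 CPM in differentiated and 2.58, 2.07 and 3.2 CPM in undifferentiated libraries (log2 fold change -0.68, SE 0.202, adjusted p = 0.00525, edgeR). No library of a state overlapped the other state in either region. These genes were named after their values were seen.

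FPR1 encodes the formyl peptide receptor with which neutrophils sense bacteria. At 350 bases downstream of the inferred start 5hmC was 2.25, 1.52 and 2.04 CPM in differentiated and 1.52, 1.16 and 1.45 CPM in undifferentiated libraries (log2 fold change 0.51, SE 0.219, adjusted p = 0.044, edgeR). At 851 bases upstream it was 0.733, 0.985 and 0.689 CPM in differentiated and 1.25, 1.4 and 1.27 CPM in undifferentiated libraries (log2 fold change -0.77, SE 0.276, adjusted p = 0.0187, edgeR). The downstream call was kept only without differentiated replicate 2 (lost without differentiated replicate 1 or 3 or any 1 undifferentiated library, adjusted p 0.0638 to 0.155), and the upstream call was lost without differentiated replicate 1 (0.0539) or 3 (0.138).

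The neighbouring receptor genes FPR2 and FPR3 did not share 1 direction. FPR2, whose region begins 547 bases downstream of its inferred start (chromosome 19, 52265001 to 52267600), rose to 5.3 ± 0.0723 CPM in differentiated cells, against 3.95 ± 0.0823 CPM in undifferentiated cells (SD, n = 3; log2 fold change 0.43, adjusted p = 0.0164 by edgeR, and 0.0838 without undifferentiated replicate 1). FPR3 fell at 189 bases downstream of its inferred start (log2 fold change -0.63, adjusted p = 0.015, lost without differentiated replicate 1 or undifferentiated replicate 3 at 0.0574 and 0.0812) and had a log2 fold change of 0.11 at 989 bases downstream (adjusted p = 0.542, edgeR; -0.10 by library totals and -0.18 with TMM on strong regions). PARVG, which encodes a parvin of white blood cells, had 0.68 at 964 bases downstream of its inferred start (adjusted p = 0.00357) and -0.59 at 837 bases upstream (adjusted p = 0.0172, lost without differentiated replicate 3 at 0.147 or undifferentiated replicate 2 at 0.0964, edgeR). With DESeq2 both FPR1 calls (adjusted p = 0.171 downstream and 0.114 upstream), those of FPR2 (0.0918) and FPR3 (0.087) and the upstream calls of GBP1 (0.0616) and PARVG (0.124) were lost.

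Member regions were then read by gene lists, each given as higher and lower of those tested, with the same by library totals beside it. Of 22 regions at neutrophil maturation genes, 4 were higher and 3 lower (1 and 4 by library totals), a share called of 31.8%. The upstream region of FPR1 and the region of FPR3 that fell, both given above, are among the 3 lower ones. Of 6 regions at primary granule and progenitor genes, 1 was lower, that of the serine protease gene PRSS57 (2.87 ± 0.106 CPM in differentiated and 4.84 ± 0.773 CPM in undifferentiated cells, log2 fold change -0.73, adjusted p = 0.000366, edgeR), 540 bases upstream of a start. AZU1, which encodes the granule protein azurocidin, did not pass (13.5, 13.6 and 11.9 CPM in differentiated and 10.8, 9.65 and 10.7 CPM in undifferentiated libraries, adjusted p = 0.0706, edgeR).

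Innate receptor genes had 11 regions higher and 5 lower of 40 (4 and 9 by library totals). CD86, a costimulatory ligand for T cells, rose with 2.09, 1.25 and 1.69 CPM in differentiated and 0.949, 1.06 and 0.604 CPM in undifferentiated libraries (log2 fold change 0.93, adjusted p = 0.0027, edgeR). CLEC12B, a C-type lectin receptor gene, rose by 1.04 (adjusted p = 0.00193) and TYROBP, an adaptor of activating receptors, by 0.95 (adjusted p = 0.0035, edgeR). The TYROBP libraries of the states overlapped, and the call was lost without differentiated replicate 3 (adjusted p = 0.343), without undifferentiated replicate 1 (0.0763) and with DESeq2 (0.0937). PILRB, a paired immunoglobulin-like receptor gene, fell by 1.11 on the log2 scale (adjusted p = 0.00212, edgeR).

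Cytokine and chemokine genes had 10 regions higher and 3 lower of 32 (3 and 6 by library totals). IL26 rose by 0.82 (adjusted p = 0.00219) and IL17A by 0.76 (adjusted p = 0.00936, 0.0535 without differentiated replicate 3 by edgeR, and 0.066 by DESeq2). IL9, a growth factor of T cells and mast cells, fell to 0.564, 0.896 and 0.657 CPM in differentiated libraries, against 1.49, 1.64 and 1.15 CPM in undifferentiated ones (log2 fold change -1.10, adjusted p = 0.0015, edgeR). Lymphoid genes had 10 higher and 3 lower of 43 (6 and 4 by library totals), and 30 regions did not pass. BTK, a kinase of B cell receptor signaling that myeloid cells also express, rose by 1.07 (adjusted p = 0.00359), and CD53, a tetraspanin of white blood cells, by 0.74 (adjusted p = 0.00129, and 0.0529 without differentiated replicate 3, edgeR). The T cell ligand gene CD40LG had the largest fall of the lymphoid regions (log2 fold change -1.83, SE 0.372, adjusted p = 0.00013, edgeR). It had 0.394, 0.269 and 0.25 CPM in differentiated and 1.22, 0.724 and 1.21 CPM in undifferentiated libraries. Its raw counts were only 7, 3 and 8 in differentiated and 45, 15 and 20 in undifferentiated libraries. This is below the mean of 30 asked of the largest changes.

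Erythroid and platelet genes had 8 regions higher and 2 lower of 17 (3 and 2 by library totals). HBD, the delta globin gene, had 5.3, 7.34 and 4.23 CPM in differentiated and 2.85, 3.04 and 2.78 CPM in undifferentiated libraries at 543 bases upstream (log2 fold change 0.88, adjusted p = 5.23e-05, edgeR), and its nearest island lay 626871 bases away. F13A1, which encodes a clotting transglutaminase of platelets and monocytes, rose by 0.74 (adjusted p = 0.000959). NFE2, a transcription factor of megakaryocytes, fell by 0.84 on the log2 scale (adjusted p = 0.00408, 0.0512 without differentiated replicate 3 by edgeR, and 0.0508 by DESeq2).

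**Figure D3:**
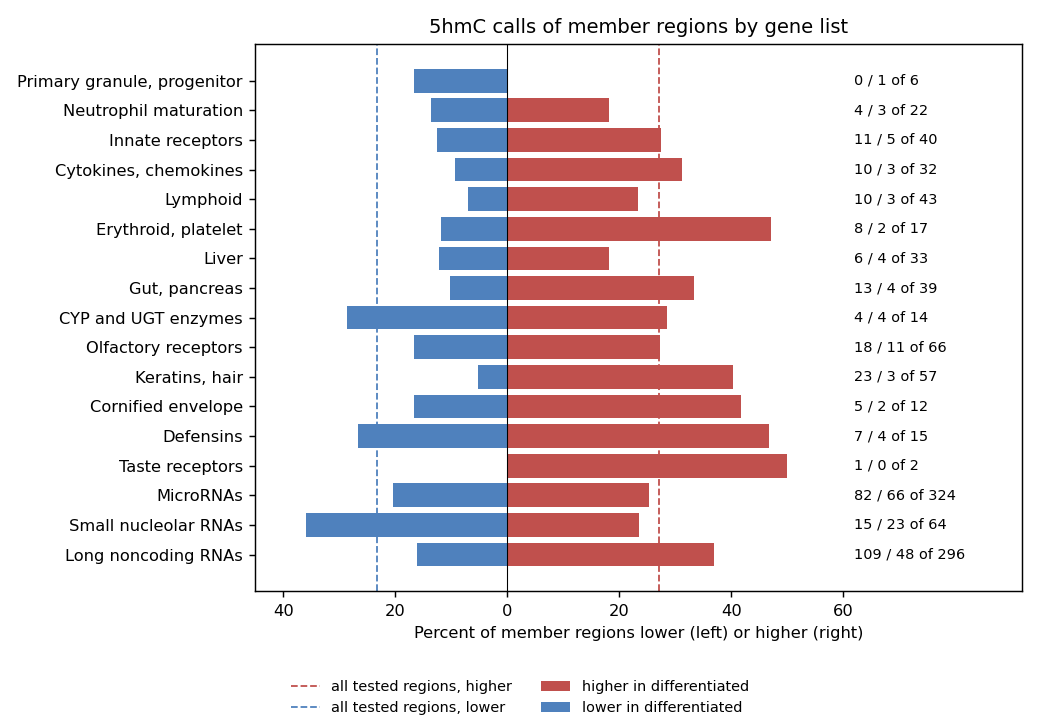
Bars give, for each gene list, the percent of its 5hmC member regions that were higher (right, red) or lower (left, blue) in differentiated cells, with counts beside them and dashed lines at 27.0% higher and 23.3% lower for all tested regions. Keratin and hair genes had 23 higher and 3 lower of 57, and small nucleolar RNA genes 15 higher and 23 lower of 64.

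Lists of genes known from other tissues followed. Keratin and hair genes had 23 regions higher and 3 lower of 57, with a median log2 fold change of 0.38 (13 and 6 by library totals, 7 and 7 with TMM on strong regions). KRTAP3-1 and KRTAP19-7, which encode hair keratin-associated proteins, rose by 1.08 (adjusted p = 0.0021) and 1.05 (adjusted p = 0.000273), while KRTAP5-1 fell by 1.22 on the log2 scale (adjusted p = 0.000375, edgeR). Cornified envelope genes of the skin barrier had 5 higher and 2 lower of 12 (2 and 2 by library totals). SPRR1A rose by 0.98 (adjusted p = 0.000376), whereas SPRR2F and S100A2 fell by over 1 unit, as given below. Defensin genes, which encode antimicrobial peptides, had 7 higher and 4 lower of 15 (5 and 6 by library totals). DEFB4B had 3.04, 3.4 and 2.88 CPM in differentiated and 1.44, 1.4 and 1.45 CPM in undifferentiated libraries (log2 fold change 1.09, adjusted p = 2.3e-05, edgeR), and it belongs to a duplicated cluster whose copies share reads.

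Gut and pancreas genes had 13 regions higher and 4 lower of 39 (5 and 7 by library totals). CEL, a lipase gene of the pancreas, rose by 1.08 (adjusted p = 0.00286), and LCT, which encodes lactase, fell by 1.24 on the log2 scale (adjusted p = 0.000338, edgeR). Liver genes had 6 higher and 4 lower of 33 (1 and 12 by library totals), led by SAA1, an acute phase gene, which had 7.78, 8.33 and 5.67 CPM in differentiated and 3.85, 3.76 and 3.68 CPM in undifferentiated libraries (log2 fold change 0.89, adjusted p = 1.33e-05, edgeR). Cytochrome P450 and glucuronosyltransferase genes had 4 higher and 4 lower of 14 (0 and 6 by library totals), and CYP3A4, a drug-metabolising enzyme gene, fell by 0.87 on the log2 scale (adjusted p = 0.00235, edgeR). Of 2 taste receptor regions, 1 was higher, which was TAS2R16 (log2 fold change 0.89, adjusted p = 0.00522, and 0.0773 without differentiated replicate 1).

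Olfactory receptor genes, which are clustered and silent outside the nose, had 18 regions higher and 11 lower of 66 in 5hmC (7 and 17 by library totals). OR10A3 rose by 1.35 (adjusted p = 3.87e-05), OR51T1 by 1.10 (adjusted p = 1.01e-05) and OR51F2 by 1.05 (adjusted p = 6.19e-05), while OR51A7, which lies near OR51T1 on chromosome 11, fell by 1.38 on the log2 scale (adjusted p = 0.000344, edgeR). In the selected 5mC list 14 of their 16 regions were higher and 1 lower, but by library totals 1 was higher and 1 lower. The other 5mC lists held few members: lymphoid genes had 2 higher and 4 lower of 6 (0 and 4 by library totals), liver genes 3 and 3 of 8 (0 and 4), innate receptor genes 2 and 2 of 6 (0 and 3) and cytokine genes 2 and 2 of 5 (0 and 2). Primary granule genes and erythroid and platelet genes had 0 members in the 5mC list, and each remaining list of protein-coding genes had at most 4.

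Long noncoding RNA genes had 109 regions higher and 48 lower of 296 (54 and 72 by library totals), and microRNA genes 82 higher and 66 lower of 324 (43 and 109). In 5mC they had 35 higher and 14 lower of 67 (6 and 23) and 29 higher and 21 lower of 66 (1 and 27). Small nucleolar RNA genes, which guide modification of ribosomal RNA and mostly lie in introns of other genes, had 15 higher and 23 lower of 64 and a median log2 fold change of -0.29 (7 and 29 by library totals, median -0.50), and in 5mC 6 higher and 8 lower of 19 (1 and 10). SNORA42 fell by 1.16 in 5hmC (adjusted p = 0.000798) and by 0.79 in 5mC (adjusted p = 0.000877), both on the log2 scale. SNORD116-2, of the imprinted chromosome 15 cluster, rose by 1.06 in 5hmC (adjusted p = 0.000745, edgeR).

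The largest 5hmC rises by the rule for named regions, which asks for at least 30 mean counts per library and states that do not overlap, were at genes of several tissues. SLITRK3, which encodes a synaptic adhesion protein, led with 3.27, 3.4 and 2.85 CPM in differentiated and 1.06, 1.06 and 0.966 CPM in undifferentiated libraries, 132 bases upstream of its start (chromosome 3, 164914601 to 164915000; 1.58 on the log2 scale, SE 0.208, adjusted p = 1.91e-07, edgeR). Its nearest island lay 1192306 bases away. DMBT1 encodes a mucosal glycoprotein that binds bacteria. The region 819 bases downstream of its inferred start (chromosome 10, 124321001 to 124321800) had 8.23, 10.6 and 7.83 CPM in differentiated and 3.5, 3.04 and 4.16 CPM in undifferentiated libraries (log2 fold change 1.29, SE 0.154, adjusted p = 2.31e-08, edgeR), the highest level of the 10. The others were DNM3OS (1.43), CMSS1 (1.42), LYG1 (1.42), OR10A3 (1.35), LINC00244 (1.32), MYH16 (1.29), MIR548AR within CNTNAP2 (1.27) and SYT1 (1.27) on the log2 scale. LYG1 encodes a lysozyme-like protein and SYT1 the calcium sensor of synaptic vesicles. The name MIR548AR is placed at several loci in the deposited tables, so it stands here only for this region.

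The largest falls included 2 genes of the epidermal differentiation complex on chromosome 1. S100A2, a calcium-binding protein of epithelia, fell to 1.63, 1.52 and 1.28 CPM in differentiated libraries, against 3.61, 3.42 and 3.92 CPM in undifferentiated ones (153537201 to 153538000; -1.33 on the log2 scale, SE 0.19, adjusted p = 6.58e-07, edgeR). SPRR2F, a cornified envelope gene, fell to 1.18, 1.43 and 0.908 CPM in differentiated libraries, against 2.25, 2.41 and 3.2 CPM in undifferentiated ones (log2 fold change -1.21, adjusted p = 4.02e-05, edgeR). BCAR4, a long noncoding RNA gene known from breast cancer, had 1.41, 1.34 and 1.44 CPM in differentiated and 3.28, 3.57 and 4.35 CPM in undifferentiated libraries at 312 bases upstream (chromosome 16, 11923001 to 11924000; -1.37 on the log2 scale, SE 0.192, adjusted p = 5.24e-07, edgeR). In each of these regions the lowest undifferentiated library lay above the highest differentiated one. The others were a region at MIR3179 (-1.38), IRGC (-1.34), CYP4Z2P (-1.25), LOC100996295 (-1.23), SEMA4A (-1.19), SLC25A45 (-1.17) and LEMD1-AS1 (-1.16) on the log2 scale. SEMA4A encodes a semaphorin of immune cells.

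**Figure D4:**
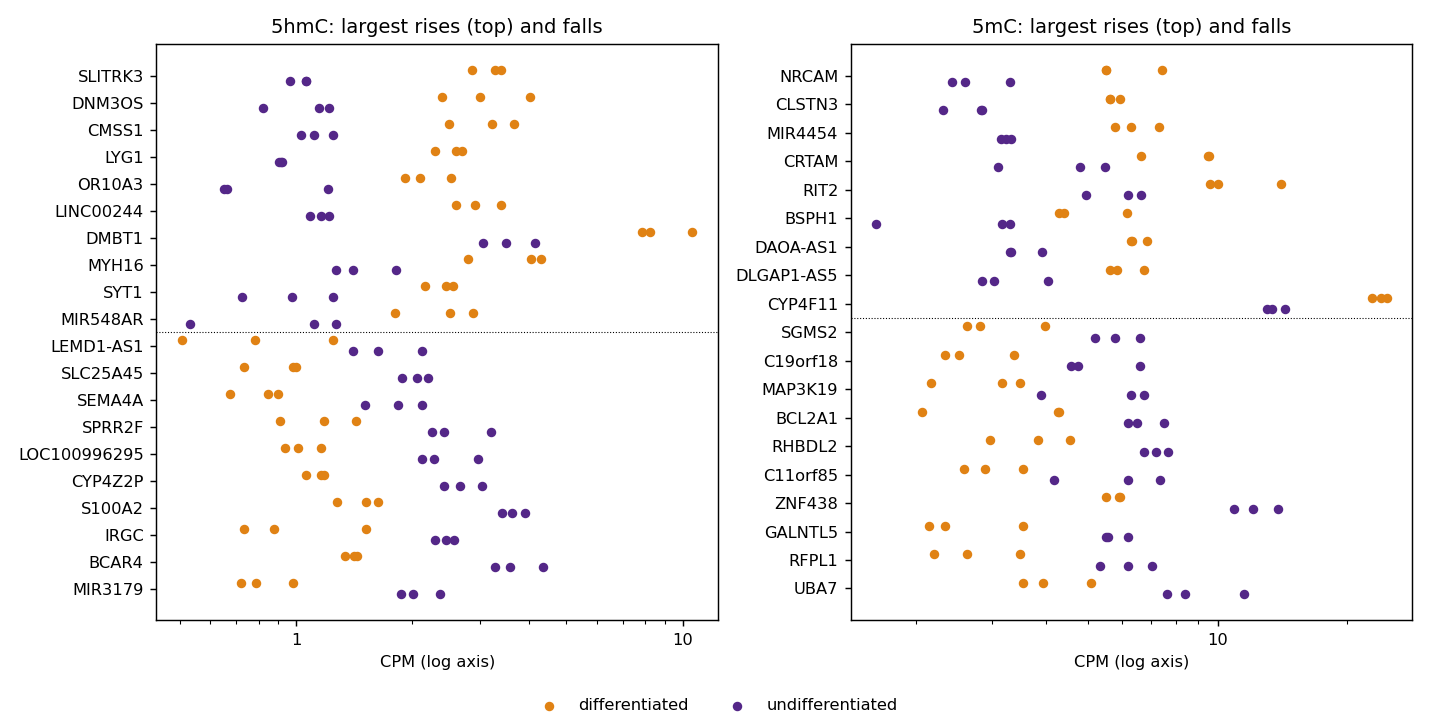
Points give the CPM (log axis) of each library in the members named for the largest rises (above the dotted line) and falls in 5hmC (left) and 5mC (right), differentiated in orange above undifferentiated in purple. In 5hmC DMBT1 stands highest, with 7.83 to 10.6 CPM in differentiated and 3.04 to 4.16 CPM in undifferentiated libraries.

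The largest 5mC rises by the same rule included NRCAM, CLSTN3, MIR4454, CRTAM, RIT2, BSPH1, DAOA-AS1, DLGAP1-AS5 and CYP4F11, from 1.16 down to 0.81 on the log2 scale. NRCAM encodes a neuronal adhesion protein. Its region at distance 0 (chromosome 7, 107880201 to 107880800) had 5.52, 5.5 and 7.43 CPM in differentiated and 2.42, 3.3 and 2.6 CPM in undifferentiated libraries (1.16 on the log2 scale, SE 0.225, adjusted p = 0.000155, edgeR). RIT2, a neuronal GTPase gene whose nearest island lay 1562985 bases away, rose by 0.90 (adjusted p = 5.17e-05, edgeR). The BSPH1 call was lost without differentiated replicate 3 (adjusted p = 0.101) or undifferentiated replicate 1 (0.129).

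The largest 5mC falls were at UBA7, RFPL1, GALNTL5, ZNF438, C11orf85, RHBDL2, BCL2A1, MAP3K19, C19orf18 and SGMS2, from -1.15 to -0.91 on the log2 scale. UBA7 encodes the enzyme that activates the interferon-induced modifier ISG15. It had 3.94, 5.09 and 3.54 CPM in differentiated and 11.5, 8.41 and 7.64 CPM in undifferentiated libraries at 610 bases upstream (chromosome 3, 49852001 to 49853000; -1.15 on the log2 scale, SE 0.186, adjusted p = 3.17e-06, edgeR). ZNF438, a zinc finger gene, fell to 5.52, 5.91 and 5.95 CPM in differentiated libraries, against 10.9, 13.8 and 12.1 CPM in undifferentiated ones (log2 fold change -1.08, adjusted p = 1.53e-07, edgeR). BCL2A1, an inhibitor of cell death in white blood cells, fell by 0.94 on the log2 scale (adjusted p = 0.00113, edgeR). CD4, from the lymphoid list, fell by 0.86 (adjusted p = 2.31e-05, edgeR). The C19orf18 call was lost without undifferentiated replicate 2 (adjusted p = 0.0556). The marks did not always share 1 direction. The passing 5hmC member of largest change rose at CD4 (0.59) and MAP3K19 (0.49). It fell at ZNF438, RFPL1, GALNTL5, C11orf85, C19orf18 and SGMS2 (-0.86 to -0.45), and at UBA7 as given below. At GBP1 a 5mC member had -0.93, where 5hmC went both ways. Apart from UBA7, these added members were named after their values were seen and are outside the counts of named regions. With DESeq2, 20 of the 32 regions of 5mC named here did not pass. Of the rises given above BSPH1, DAOA-AS1 and DLGAP1-AS5 were lost (adjusted p 0.0828 to 0.164), and of the falls C11orf85, BCL2A1, MAP3K19, C19orf18 and SGMS2 (0.075 to 0.106), with fold changes of like size.

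The marks overlapped unevenly. Of the 5hmC members 557 (15.0%) shared at least 1 base with a listed 5mC region, and of the 5mC members 516 (67.3%) did so with a 5hmC region. In 536 genes both tables held a member, and in 303 of them a member passed in each mark. Over all tested regions 50.3% were called in 5hmC and 72.7% in the 5mC list, and some genes hold several members. The like count over all genes was not made, so 303 is a description only. Because each DNA preparation was divided between the antibodies, the marks are not independent and their values are given side by side. At S100A2 the same 800 bases had 4.39, 4.26 and 5.49 CPM of 5mC in differentiated and 7.27, 7.36 and 7.79 CPM in undifferentiated libraries (log2 fold change -0.66, adjusted p = 0.0104), where 5hmC had -1.33. USF1, which encodes a ubiquitous transcription factor, had 0.62, 0.448 and 0.72 CPM of 5hmC in differentiated and 2.2, 1.5 and 1.33 CPM in undifferentiated libraries (chromosome 1, 161013401 to 161014000; log2 fold change -1.47, adjusted p = 5.1e-05, edgeR). Its 5mC was 3.6, 3.44 and 3.09 CPM in differentiated and 7.68, 5.11 and 5.77 CPM in undifferentiated libraries (log2 fold change -0.88, adjusted p = 0.00251, and 0.0576 without undifferentiated replicate 1, edgeR).

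The 8 gene names with the largest 5hmC change among the 303 were lower in both marks; 3 of them are copies of MIR3179, and the others include USF1. ICAM2, an adhesion molecule of endothelium and white blood cells, had log2 fold changes of -1.65 in 5hmC and -0.80 in 5mC, and HYAL1, a hyaluronidase gene, -1.56 and -0.50, in both genes in regions that lie apart. TBCE, a tubulin folding cofactor gene, had -1.69 and -0.20, and MIR3616 -1.51 and -0.42. Leaving out 1 library ended the 5mC call in 4 of 6 fits for ICAM2 and HYAL1, in 5 for MIR3616 and in 6 for TBCE. TNFAIP8L2, a regulator of immune responses named after its values were seen, had -1.20 and -1.06, and FLI1, an ETS transcription factor of blood, -1.02 and -0.94 at 631 bases upstream (5mC call lost without differentiated replicate 1 at adjusted p = 0.0756 or undifferentiated replicate 2 at 0.073). UBA7 had -1.11 in 5hmC at the region given above for 5mC. BCAR4 fell in 5mC as well, by 0.36 on the log2 scale in a region of 5000 bases upstream (adjusted p = 0.00282), and SPRR2F by 0.75 (adjusted p = 0.035, kept without differentiated replicate 1 or undifferentiated replicate 2 only).

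With DESeq2 the 5mC calls of S100A2, USF1, ICAM2, HYAL1, TBCE, MIR3616, TNFAIP8L2, FLI1, BCAR4, SPRR2F and SNORA42 were lost as well (adjusted p 0.0654 to 0.269), while UBA7 passed (0.0037).

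Both microRNA genes of this set carried distinct seeds, shown in capitals in the mature sequences (bases 2 to 8, RefSeq, GRCh38.p14). They are given because their promoters fell in both marks.
hsa-miR-3179: aGAAGGGGugaaauuuaaacgu
hsa-miR-3616-5p: aUGAAGUGcacucaugauaugu
MIR3179 is present in 3 copies on chromosome 16 with 1 mature sequence, so reads of its copies may have been exchanged. Its region (chromosome 16, 18506201 to 18506600) had 0.789, 0.985 and 0.72 CPM of 5hmC in differentiated and 2.01, 2.36 and 1.87 CPM in undifferentiated libraries (log2 fold change -1.38, adjusted p = 2.47e-05, edgeR). In 5mC the log2 fold change was -0.63 (adjusted p = 0.0129, lost without differentiated replicate 3 at 0.0551, without undifferentiated replicate 2 at 0.158 and with DESeq2 at 0.177).

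Distance to the nearest island separated members as well. Members over 100000 bases from an island had 260 regions of 5hmC higher and 84 lower of 582, with a median of 0.39, against medians of 0.20, 0.17 and 0.22 at over 2000 to 5000, over 5000 to 20000 and over 20000 to 100000 bases. In 5mC 82 were higher and 18 lower of 132 beyond 100000 bases (median 0.54), against 27 higher and 34 lower of 85 at over 2000 to 5000 bases (median -0.30), with medians of 0.30 and 0.39 in the classes between. By library totals the 5mC calls beyond 100000 bases turned to 13 higher against 23 lower (TMM on strong regions gave 7 against 23), and the medians in order of distance were -0.56, 0.04, 0.14 and 0.28. By library totals the 5hmC medians were 0.18 beyond 100000 bases and -0.01, -0.05 and 0.01 nearer. Regions that were no members did likewise, with 5hmC medians of 0.12 beyond 100000 bases and -0.13, -0.18 and -0.10 nearer, so the gradient was not seen in members only.

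**Figure D5:**
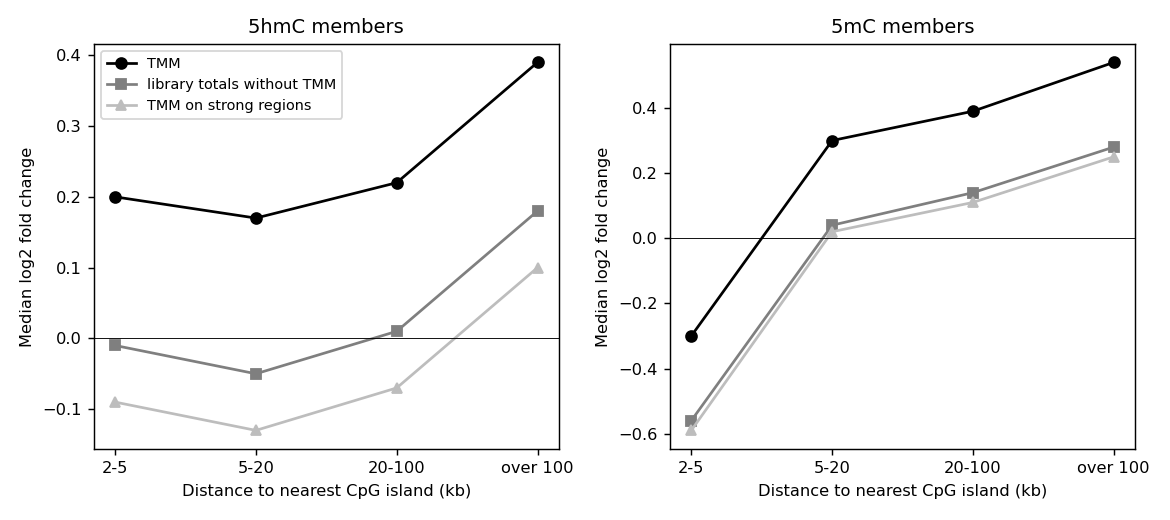
Lines give the median log2 fold change (differentiated over undifferentiated) of 5hmC members (left) and 5mC members (right) in 4 classes of distance to the nearest CpG island, under 3 scalings of the libraries. The class over 100 kb is highest under each scaling, at 0.39, 0.18 and 0.10 in 5hmC, and the level of the whole line moves with the scaling.

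Members on the X chromosome had 48 regions of 5hmC higher and 12 lower of 114 (20 and 16 by library totals), and all its tested regions 1923 higher and 731 lower of 5064. On chromosome 17 members had 39 higher and 36 lower of 198, and all tested regions 2125 higher and 3551 lower of 12076. In captured DNA more copies of a locus and more of the mark per copy cannot be told apart, and no input library was analysed here. Repeats and duplicated genes are uncertain for the same reason. All 8 regions of the USP17L gene array on chromosome 4 were higher in 5hmC (log2 fold change 0.50 to 0.99), and 2 of 13 regions of the SNAR-A array on chromosome 19 were lower, but the copies share reads.

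At the limits of the rule, members over 900 to 1000 bases from a start had a median 5hmC log2 fold change of 0.03 (n = 126), and regions just outside, at over 1000 to 1100 bases, -0.05 (n = 134). Members over 2000 to 2200 bases from an island had 0.14 (n = 39), and promoters just outside, at over 1800 to 2000 bases, 0.23 (n = 53).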

How the data were processed

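DNA captured with antibodies to 5mC (MeDIP) or 5hmC (hMeDIP) was sequenced from 3 cultures of each state. The deposited tables hold whole-number read counts per enriched region and library. Per the submitters' processing notes the authors used BWA, SAMtools 0.1.18, bedtools 2.17.0, SICER 1.1, edgeR 2.11 and GRCh37 (hg19). The authors' deposited log2 fold changes had the opposite sign to differentiated over undifferentiated in 90.4% (5hmC) and 99.6% (5mC) of regions and were not used. The deposited p-value served only to read the selection of the 5mC list, whose largest p was 0.0165 and largest adjusted p 0.0826, which imply 328588 tests; 5mC p-values were adjusted over that number. Values were missing for 18 of 327949 regions of 5hmC.

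Counts were fitted over each whole table with edgeR 4.0.16 (filterByExpr, TMM, quasi-likelihood test, Benjamini-Hochberg, R 4.3.3), tested first on simulated data. CPM values use TMM-scaled library sizes. Fold changes are differentiated over undifferentiated. No input library was used here. The alternatives were DESeq2 1.42.0, 2 other scalings, no filter, a replicate block, other distance limits and leaving out each library. The median member count per library was 22 to 70 in 5hmC and 47 to 67 in 5mC.

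Starts were inferred, in genes named alone in the promoter column, as the 1 position that at least 2 regions with a distance above 0 pointed to. Regions named were the 10 largest rises and falls that passed at 0.05 with at least 30 mean counts and no overlap of states, up to 4 passing regions and the highest level per gene list, and the 8 genes with the largest 5hmC change among those passing in both marks; others are said to be named after their values were seen. A few regions that the rule names are not reported here. Members, lists and this rule were chosen with earlier results of these data known. Gene names are those of the deposited tables, and chromosome positions of regions are on hg19, counted from 1.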

Additional observations from a re-analysis of the deposited data

How the results depend on the processing

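The 5hmC median of members was 0.22 and moved to 0.00 by library totals, -0.07 with TMM on strong regions and 0.25 for starts within 500 bases. DESeq2 called 66462 regions of 5hmC in all and 728 members (164889 and 1787 with edgeR), and 3408 and 57 in 5mC (47650 and 574); the cause was not tested. Leaving out 1 library gave 102900 to 168726 calls of 5hmC in all, 1093 to 1851 in members and medians of 0.18 to 0.22. In 5mC it gave 29080 to 30539 calls in all, 339 to 370 in members, medians of 0.35 to 0.37 and a median difference of distance 0 minus upstream members of 0.76 to 0.82, against 0.83 with all libraries. That difference, added after the data were seen, stayed between 0.23 and 0.25 in 5hmC under every setting tried. The 5mC difference is not on a like scale. The selected 5mC list holds few fold changes near 0, so its medians lie to 1 side of that gap or the other. Members called in 5mC were 338 by library totals and 331 with TMM on strong regions, with medians of 0.12 and 0.10; the median was 0.41 for islands over 10000 bases away. Adjusted over the listed regions only, all 767 members of 5mC passed, since the list had been selected on p. With the replicate number as a block, 1494 members of 5hmC and 559 of 5mC were called; the numbers did not pair the libraries, since same-numbered libraries had correlations of deviations from -0.103 to 0.000703 in 5hmC and from -0.0097 to 0.0112 in 5mC. Of the named regions, 9 of 67 in 5hmC and 20 of 32 in 5mC lost their call with DESeq2. FPR3 at 989 bases downstream of its inferred start reversed to -0.10 by library totals and -0.18 with TMM on strong regions.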
